A study of Mus musculus with 6 samples.

Results

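Galanin and its receptors are 4 of the 21899 genes listed in the counts: Gal, which encodes the precursor of the neuropeptide, and Galr1, Galr2 and Galr3, which encode the receptors that bind it. The set was selected on a measured value, the higher count of Gal in the RN mice, and the receptors were added by family name. The RN and RC values of Gal are therefore given as a description, with no test. Only Gal and Galr1 had enough reads to pass edgeR's filter on low counts, and Galr2 and Galr3 did not.

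The libraries came from 6 wild-type male C57BL/6J mice, 8 to 10 weeks old when purchased, whose left thalamic region had received a single dose of 50 Gy of gamma rays. All 6 were injected in the thalamus 2 weeks later with 2 µL of an AAV9 virus at 5.0E+11 GC/mL, and the thalamus was removed 6 weeks past the irradiation. The 3 RC mice received AAV9 GFAP104::tdTomato, which carries a red fluorescent protein alone. The 3 RN mice received AAV9 GFAP104::mND1-tdTomato, which also carries mouse NeuroD1, a transcription factor that drives neuronal differentiation. GFAP104 is a promoter built for astrocytes, so any change in neurons of the tissue is measured together with that of the cells that carried the virus. No unirradiated or uninjected mice were analysed here, so both groups share the radiation and the injection. The tissue was the part of the thalamus beneath the hippocampus, taken from a coronal section with tweezers and sequenced in bulk, in which more cells of a type and more RNA per cell cannot be told apart.

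Galanin is a peptide transmitter of hypothalamic and brainstem neurons. It is scarce in most intact sensory and motor neurons and is known to be strongly induced when their axons are cut. GALR1 and GALR3 lower the excitability of neurons through inhibitory G proteins and potassium channels, whereas GALR2 mainly activates phospholipase C. The precursor is cut at pairs of basic residues, and the glycine that follows the mature peptide is turned into its terminal amide.

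The stretch of Gal that encodes the mature peptide is shown because it is the product whose transcript differed between the groups. In GENCODE M21 (GRCm38) Gal lies on the minus strand of chromosome 19, from 3409915 to 3414544, with no other gene overlapping it. Its transcript Gal-202 has 6 exons and an open reading frame of 124 codons, of which codons 33 to 61 encode the 29 residues of galanin. They run from exon 3 to exon 4, within chr19:3411592-3413340 of the minus strand. Capitals mark the codons for the lysine and arginine before the peptide and for the glycine, lysine and arginine after it.
Gal, mature peptide with its cleavage codons: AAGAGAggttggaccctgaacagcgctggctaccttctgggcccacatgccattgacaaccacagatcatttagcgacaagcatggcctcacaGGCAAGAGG

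The 250 bases before the annotated start of Gal (RefSeq, GRCm38.p6, chr19:3414545-3414794, minus strand) were searched on both strands because NeuroD1 binds E-boxes and ATF3 binds AP-1 and CRE elements. The window held no E-box (CANNTG, found in 66.2% of 32851 promoter windows of the same length), no AP-1 element (TGANTCA, 6.75%), no CRE core (TGACG, 17.8%) and no STAT element (TTCNNNGAA, 7.02%). It held 1 GC box (GGGCGG, 32.7%), from 122 to 117 bases before the start, which is in capitals. These are matches of letters and say nothing of binding.
Gal, bases before the start: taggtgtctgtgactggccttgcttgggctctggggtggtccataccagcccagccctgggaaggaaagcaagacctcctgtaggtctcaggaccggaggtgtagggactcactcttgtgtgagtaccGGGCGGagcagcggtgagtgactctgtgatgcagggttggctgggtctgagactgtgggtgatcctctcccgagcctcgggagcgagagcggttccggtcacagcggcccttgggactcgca

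Sequencing depth was even, with between 16561663 and 18657015 reads counted on genes per mouse, and 14956 genes passed the filter. Neurod1, which only the RN virus carries, had 84, 91 and 90 reads in RC1, RC2 and RC3 and 1123, 1711 and 910 in RN1, RN2 and RN3. Viral and mouse transcripts of Neurod1 are counted together. Genes known from tissues other than the thalamus varied widely between the libraries. The summed level of 10 choroid plexus genes was 2752, 8373 and 320.8 CPM (reads scaled to library size) in RC1, RC2 and RC3 and between 71.6 and 146.8 CPM in RN. The summed level of 12 pituitary genes was 1409 and 662.5 CPM in RN1 and RN2, 95.0 and 95.6 CPM in RC1 and RC2, and 5.79 and 5.93 CPM in RC3 and RN3.

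Gal (ENSMUSG00000024907) had 106, 93 and 57 reads in RC1, RC2 and RC3 and 525, 1550 and 1341 reads in RN1, RN2 and RN3. Scaled to library size, the RC mice stood at 5.94, 5.56 and 3.27 CPM and the RN mice at 31.2, 82.9 and 75.0 CPM. Every RN mouse lay above every RC mouse, and RN1 stood well below the other 2 RN mice. The mean was 4.92 ± 1.45 CPM for RC and 63.0 ± 27.8 CPM for RN (SD over 3 mice), a ratio of 12.8 and a fitted log2 fold change of 3.68 (SE 0.40). The lowest RN mouse was 5.25 times the highest RC mouse. Between mice of the same replicate number, the ratio was 5.25 for number 1, 14.9 for number 2 and 23.0 for number 3. The spread within RN was itself wide, with RN2 at 2.65 times RN1, against 1.82 times between the highest and the lowest RC mouse. The fitted log2 fold change of Gal was between 3.42 and 4.0 when each mouse was left out in turn, with the highest value obtained without RN1. Among the 14956 tested genes, it was the 10th largest increase.

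**Figure D1:**
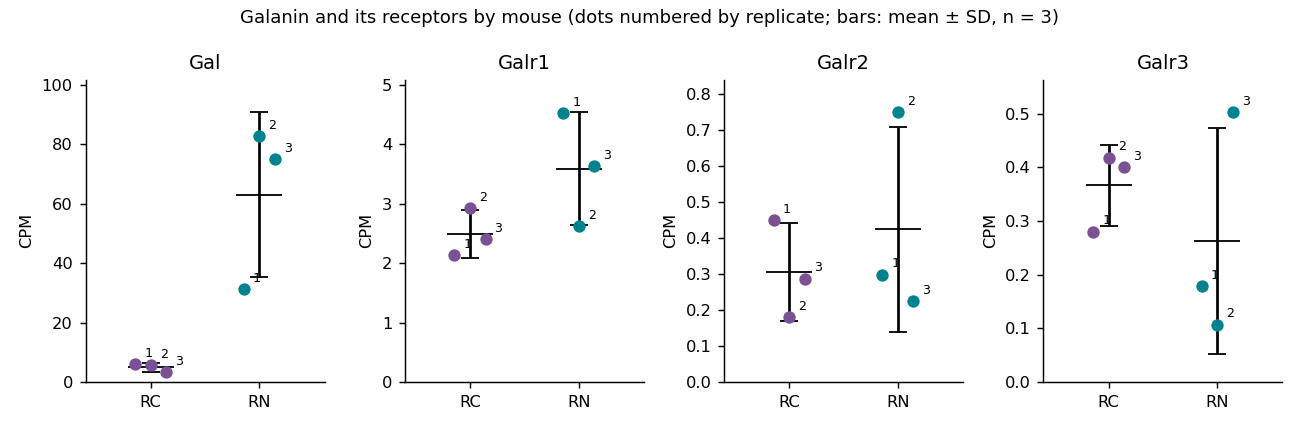
Level of each gene in CPM (linear axes from 0, each panel with its own scale) by group, with 1 dot per mouse numbered by replicate and bars for mean ± SD (n = 3). The RN mice lie between 31.2 and 82.9 CPM for Gal, above all RC mice, whereas the groups overlap for Galr1, Galr2 and Galr3.

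None of the receptors was separated between the groups as Gal was. Galr1 (ENSMUSG00000024553), the inhibitory receptor and the best measured of the 3, had 38, 49 and 42 reads in RC1, RC2 and RC3 and 76, 49 and 65 reads in RN1, RN2 and RN3. RN2, the mouse with the most Gal, was within the range of the RC mice for Galr1. The mean of Galr1 was 2.49 ± 0.405 CPM for RC and 3.59 ± 0.951 CPM for RN (SD over 3 mice). Its log2 fold change was 0.53 (SE 0.29; 95% interval from -0.13 to 1.19), and the quasi-likelihood test of edgeR gave an adjusted p of 0.549 over all tested genes. By the thresholds used, an adjusted p under 0.05 and a change of at least 2-fold, edgeR called 0.0602% of all tested genes higher (9 genes) and 0.0134% lower (2 genes). With the replicate number as a block these counts were 17 and 5. Galr1 was not called, but its interval includes a change of 2-fold. DESeq2's Wald test, which called 1.15% of its genes in either direction, gave Galr1 an adjusted p of 0.724.

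Galr2 (ENSMUSG00000020793), the receptor coupled to phospholipase C, had 8, 3 and 5 reads in RC1, RC2 and RC3 and 5, 14 and 4 reads in RN1, RN2 and RN3. RN2 was the highest of the 6 mice and the groups overlapped. Mean Galr2 was 0.305 ± 0.136 CPM for RC and 0.423 ± 0.284 CPM for RN (SD over 3 mice). The log2 ratio of these means was 0.47 with all mice and -0.23 without RN2. Galr3 (ENSMUSG00000114755), the other inhibitory receptor, had 5, 7 and 7 reads in RC1, RC2 and RC3 and 3, 2 and 9 reads in RN1, RN2 and RN3. Its mean was 0.367 ± 0.075 CPM for RC and 0.263 ± 0.211 CPM for RN (SD over 3 mice), and RN3 was the highest of all 6 mice. When edgeR was run without the filter, Galr2 had a log2 fold change of 0.47 (SE 0.73; edgeR adjusted p = 0.867) and Galr3 one of -0.47 (SE 0.76; edgeR adjusted p = 0.874). Galr3 overlaps Gcat on the same strand in GENCODE M21, and how the authors assigned shared reads is not given in the sources used here.

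To compare levels between genes, reads were also divided by the summed exon length of each gene in GENCODE M21 (RPKM, CPM per kilobase of exon). In RC, Gal was at 6.25 ± 1.84 RPKM and Galr1 at 0.833 ± 0.136 RPKM (SD, n = 3 mice each). Galr3 followed at 0.294 ± 0.060 RPKM and Galr2 at 0.124 ± 0.055 RPKM. No mouse of RC broke this order, in which Gal lay above Galr1, Galr1 above Galr3 and Galr3 above Galr2. The order of Galr3 and Galr2 rests on 8 reads or fewer per mouse. In RC1, Galr2 had more reads than Galr3 (8 against 5), and only the division by length put it lower. In RN, Gal was at 80.0 ± 35.3 RPKM and Galr1 between 0.877 and 1.51 RPKM. Galr3, at 0.211 ± 0.170 RPKM, and Galr2, at 0.172 ± 0.116 RPKM, were within each other's spread there, and RN2 had more Galr2 than Galr3.

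The other ligands and receptors of the family were measured beside them. Gpr151, an orphan receptor related to the galanin receptors and known from the habenula, was the only family gene at the level of Gal in RC, with 4.96 to 11.7 RPKM against 4.14 to 7.54 RPKM for Gal. In RN it was at 10.8 to 16.2 RPKM, below every value of Gal. Its log2 fold change was 0.56 (SE 0.30; edgeR adjusted p = 0.543), with overlapping groups. Spx, which encodes spexin, a ligand of GALR2 and GALR3, had 10, 8 and 7 reads in RC1, RC2 and RC3 and 21, 24 and 16 reads in RN1, RN2 and RN3. Every RN mouse was above every RC mouse for Spx, as for 8.18% of all tested genes. Its log2 fold change of 1.24 (SE 0.40) had an adjusted p of 0.255 from edgeR and was not called. With 10 reads or fewer in each RC mouse, Spx passed the filter through the RN mice. Galp, which encodes galanin-like peptide, had no reads in RC and 1, 2 and 5 in RN1, RN2 and RN3, too few for a fold change. Kiss1, the kisspeptin precursor, which overlaps Golt1a and Gm28040 on the same strand in GENCODE M21, had at most 5 reads in any mouse. Its receptor gene Kiss1r, which R3hdm4 overlaps on the other strand, had a log2 fold change of 0.09 (SE 0.27; edgeR adjusted p = 0.945). Of the 8 family genes other than Gal, 4 passed the filter, none was called and 1 (Spx) had an unadjusted p under 0.05, against 11.8% of all tested genes.

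**Figure D2:**
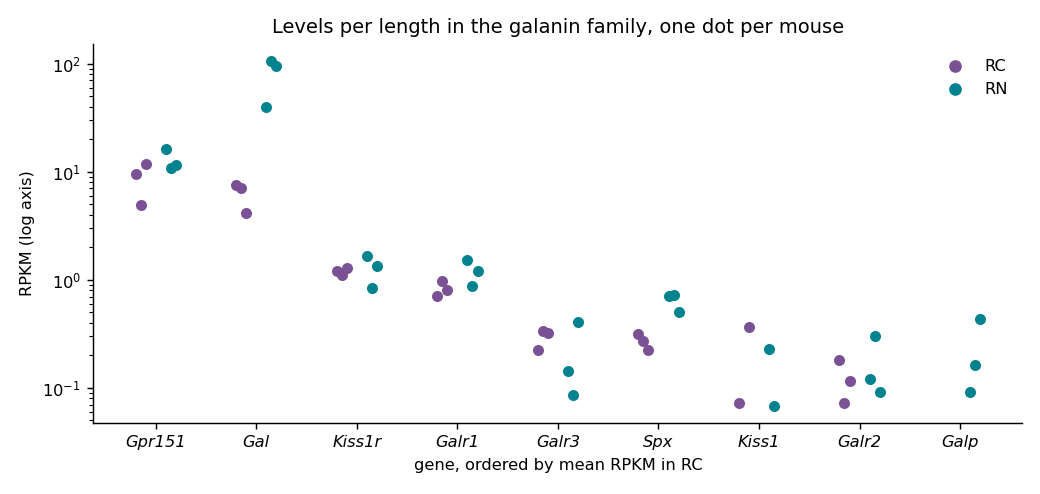
Level per length in RPKM on a log axis for the 9 family genes, with 1 dot per mouse in RC and RN (values of 0 are not drawn). Gal is at 4.14 to 7.54 RPKM in RC, beside Gpr151, and at 39.6 to 105.2 RPKM in RN, above all other family genes.

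Because galanin acts only after its precursor has been cut, amidated and released, 13 genes of peptide processing and release were examined. None was called by edgeR. At an unadjusted p under 0.05, 4 were higher and 1 was lower, against 11.8% of all tested genes in either direction, with a median log2 fold change of 0.17 over the 13 genes, against 0.0037 over all tested genes. The smallest p among them belonged to Chgb, a granin of dense-core granules, with a log2 fold change of 0.40 (SE 0.093; edgeR adjusted p = 0.139). Scg2, another granin, had a log2 fold change of 0.70 (SE 0.17; edgeR adjusted p = 0.150), and without RC1 it was 0.94 (edgeR adjusted p = 0.0401). With each other mouse left out it was between 0.57 and 0.71, with edgeR adjusted p from 0.280 to 0.337. DESeq2 gave Chgb and Scg2 adjusted p of 0.0121 and 0.00284, at less than 2-fold. Pam, the enzyme that forms the terminal amide, was counted 4202, 2905 and 2776 times in RC1 to RC3 and 4526, 5114 and 4427 times in RN1 to RN3. Its log2 fold change was 0.48 (SE 0.14; edgeR adjusted p = 0.228). The gene lower at an unadjusted p under 0.05 was Cpe, with a mean of 3161 CPM for RC and 2654 CPM for RN. Its log2 fold change was -0.25 (SE 0.088; edgeR adjusted p = 0.298). Every RN mouse lay below every RC mouse for Cpe, as for 8.12% of all tested genes. The summed level of the 13 genes was 5549 to 5910 CPM in RC and 5614 to 5842 CPM in RN, a ratio of means of 1.01.

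Downstream of the receptors, none of 14 G protein, GIRK channel, phospholipase C and adenylyl cyclase genes was called by edgeR. Their median log2 fold change was -0.13. An unadjusted p under 0.05 was reached by 3, all lower in RN, against 11.8% of all tested genes in either direction. The 3 were Gnai2 and Gnai3, which encode inhibitory G protein subunits, with log2 fold changes of -0.19 (SE 0.080) and -0.28 (SE 0.11), and Adcy1, an adenylyl cyclase, with -0.65 (SE 0.20). Their adjusted p from edgeR were 0.419, 0.381 and 0.230. DESeq2 gave Adcy1 an adjusted p of 0.0325, at less than 2-fold. Each RN mouse was below each RC mouse for these 3 genes, as for 8.12% of all tested genes.

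Galanin is known to rise with a set of other genes in neurons whose axons are cut, and 19 of 20 such genes were tested. EdgeR called Sprr1a, Atf3 and Ecel1 higher and none lower, against 0.0602% of all tested genes called higher and 0.0134% lower. By direction alone, 13 of the 19 were higher and 6 were lower. At an unadjusted p under 0.05, 9 of the 19 were higher, a level that 11.8% of all tested genes reached in either direction. The median log2 fold change of the 19 was 0.35. Sprr1a, a small proline-rich protein of regrowing axons, was at 12, 16 and 11 reads in the RC mice and at 191, 292 and 335 in the RN mice. Its log2 fold change was 4.33 (SE 0.28; edgeR adjusted p = 0.00178), and it was called in all 6 fits that left out a mouse. Atf3, a transcription factor induced by axon injury, was at 206, 183 and 269 reads in the RC mice and at 488, 734 and 695 in the RN mice, with a log2 fold change of 1.50 (SE 0.18; edgeR adjusted p = 0.0419). Ecel1, an endopeptidase of injured neurons, was at 742, 779 and 723 reads in the RC mice and at 1644, 1907 and 2569 in the RN mice and had a log2 fold change of 1.41 (SE 0.15; edgeR adjusted p = 0.0365).
Atf3 and Ecel1 each kept their call in 2 of the 6 fits that left out a mouse, with adjusted p up to 0.193 and 0.107 from edgeR, while their log2 fold changes were at least 1.41 and 1.21. Atf3 lost its call without RC1, RC2, RN2 or RN3, and Ecel1 without RC1, RC2, RC3 or RN2. Not all injury genes were called higher. Gap43, a growth cone protein, had a log2 fold change of 0.26 (SE 0.13; edgeR adjusted p = 0.489) and Vip, a peptide that injured neurons also induce, one of -0.16 (SE 0.45; edgeR adjusted p = 0.944). This list was written with earlier results for these 3 called genes known, so its count is not independent evidence.

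Among cytokines and signal molecules of the gp130 pathway, through which leukemia inhibitory factor is known to induce galanin, none of 14 tested genes was called by edgeR and 2 had an unadjusted p under 0.05, both lower, a share near the 11.8% of all tested genes. The median log2 fold change was -0.019. Lif itself was at 34, 39 and 28 reads in the RC mice and at 32, 50 and 57 in the RN mice, which overlapped (edgeR adjusted p = 0.700). Cntf, an astrocyte cytokine of the same pathway, had a log2 fold change of -0.82 (SE 0.26; edgeR adjusted p = 0.235), and its receptor gene Cntfr one of -0.32 (SE 0.085; edgeR adjusted p = 0.185). Il6 had at most 3 reads in any mouse.

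**Figure D3:**
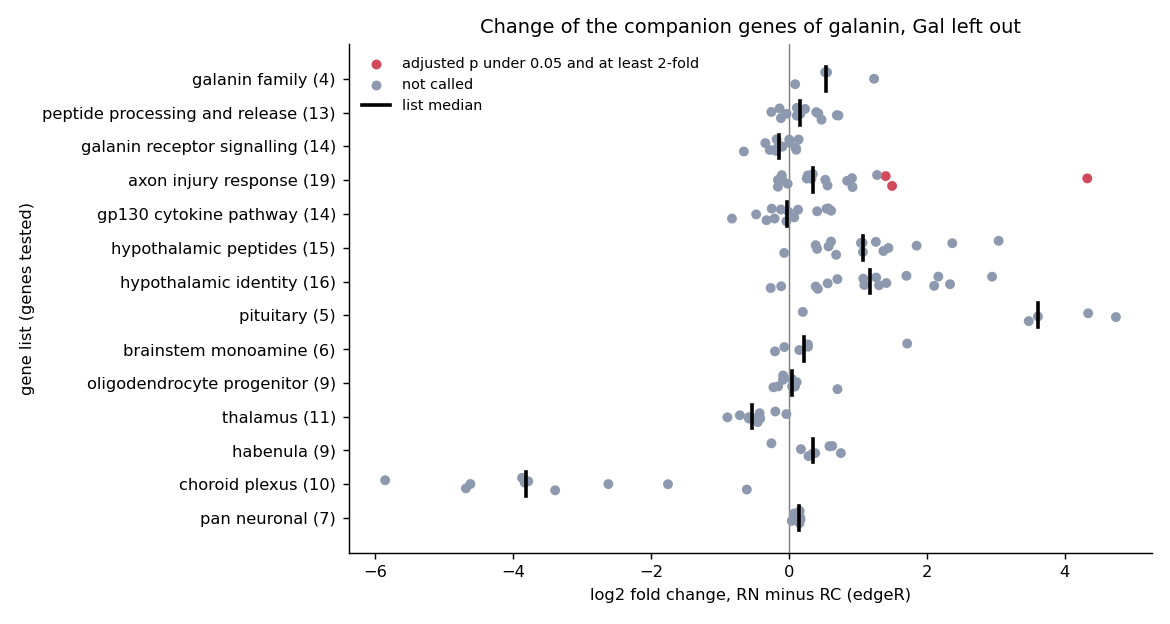
Log2 fold change of each tested gene (x axis, RN minus RC, edgeR) in 14 gene lists (y axis, with the number of genes tested), Gal left out. Black bars are list medians. Sprr1a, Atf3 and Ecel1 of the axon injury list are the only called genes, and the hypothalamic lists have medians of 1.07 and 1.18. The median of 1.18 includes Six6, Hmx3 and Nr5a1, which passed the filter only through the RN mice.

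Gal is also a gene of the hypothalamus, which borders the thalamus, and hypothalamic genes were at higher levels in the RN libraries. The summed level of 18 hypothalamic identity genes was between 68.0 and 76.1 CPM in RC and between 113.4 and 138.8 CPM in RN, with no overlap and a ratio of means of 1.70. That of 19 hypothalamic peptide genes was between 412.0 and 454.9 CPM in RC and between 666.3 and 959.3 CPM in RN, a ratio of 1.82. For Gal the ratio was 12.8. The peptide sum of RC3 held 205.5 CPM of Penk, and that of RN3 335.1 CPM. Pmch and Hcrt were at 5.44 and 0.344 CPM in RC3. For both, RC1, at 122.9 and 38.2 CPM, was above RN3, at 102.1 and 28.7 CPM, though below RN1 and RN2. Single hypothalamic genes ranged to both sides of the ratios of these sums. Ratios of means were 8.26 for Pomc, 7.89 for Six6 and 5.17 for Avp, the vasopressin precursor. Pomc overlapped between the groups, with RN3 at 1.51 CPM, within the 1.49 to 4.84 CPM of RC. Gnrh1, which encodes gonadotropin-releasing hormone, was at 0, 1 and 2 reads in the RC mice and at 5, 16 and 19 in the RN mice. Its ratio of means was 12.7, near that of Gal, but it rests on few reads and the filter removed the gene. Of the tested genes, 1 peptide gene and 2 identity genes were lower in RN. Their ratios of means were 0.956 for Cartpt, 0.834 for Six3 and 0.927 for Ghsr. No list gene was at 0 in all mice. EdgeR called none of the 16 tested identity genes or the 15 tested peptide genes, of which 8 and 6 were higher at an unadjusted p under 0.05, and DESeq2 called 6 and 2. Over all tested genes these shares were 11.8% at an unadjusted p under 0.05 and 1.15% by DESeq2, both in either direction. Six6, Hmx3 and Nr5a1, which are among the 8 identity genes, had fewer than 10 reads in every RC mouse. They passed edgeR's filter only through the RN mice, where they were higher, so their place in that count is not independent of the direction. Without the filter on low counts, edgeR called Oxt (adjusted p = 0.0420). The peptide Oxt, oxytocin, had a log2 fold change of 1.85 (SE 0.32; edgeR adjusted p = 0.0813), and Nkx2-1, a transcription factor of the ventral hypothalamus, one of 1.31 (SE 0.32; edgeR adjusted p = 0.150). The part of hypothalamic tissue in the level of Gal was not tested.
Lactotrophs of the pituitary can make galanin, and the pituitary genes are given beside Gal. RN3 had 75.0 CPM of Gal with 5.93 CPM of pituitary genes in sum, whereas RN1, with the most pituitary reads, had 31.2 CPM of Gal. The part of pituitary tissue in the level of Gal was not tested. Only 5 of the 12 pituitary genes passed the filter, none was called and 3 were higher at an unadjusted p under 0.05 (11.8% of all tested genes in either direction), while with the replicate block edgeR called Cga, the shared subunit of pituitary hormones (adjusted p = 0.00936). Pomc, a gene of the hypothalamic peptide list that pituitary cells also express, was at 731 and 786 reads in RN1 and RN2 and at 27 in RN3. Prl, the hormone of lactotrophs, was at 8 and 6 reads in RC3 and RN3. The brainstem genes for monoamines were at 43.9 to 267.4 CPM in RC and 156.3 to 228.6 CPM in RN in sum, with none of 6 tested genes called or at an unadjusted p under 0.05. The same held for 9 oligodendrocyte progenitor genes, with sums of 399.4 to 501.4 CPM in RC and 391.0 to 520.6 CPM in RN. All 11 thalamic genes were detected and tested, with sums of 895.9 to 1855 CPM in RC and 685.5 to 1277 CPM in RN. By direction alone, all 11 were lower in RN, with a median log2 fold change of -0.53. None of them was called by edgeR. At an unadjusted p under 0.05, 1 was lower, against 11.8% of all tested genes in either direction. It was Rgs16, a regulator of G protein signalling (DESeq2 adjusted p = 0.0364, at less than 2-fold). None of 7 general neuronal genes was called, and their median log2 fold change was 0.16.
Habenular genes, where Gpr151 is known, had sums of 318.6 to 526.1 CPM in RC and 368.0 to 566.3 CPM in RN. None of 9 was called and 2 were higher at an unadjusted p under 0.05, against 11.8% of all tested genes in either direction. In the choroid plexus list, none of 10 genes was called by edgeR. DESeq2 called 7 lower, against 1.15% of its genes in either direction. At an unadjusted p under 0.05, 9 were lower, against the same 11.8% of all tested genes. Without RC2, the library with the most choroid plexus reads, the log2 fold change of Gal was 3.77, but RC1 still held 2752 CPM of these genes. The part of choroid plexus tissue in the level of Gal was not tested.

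**Figure D4:**
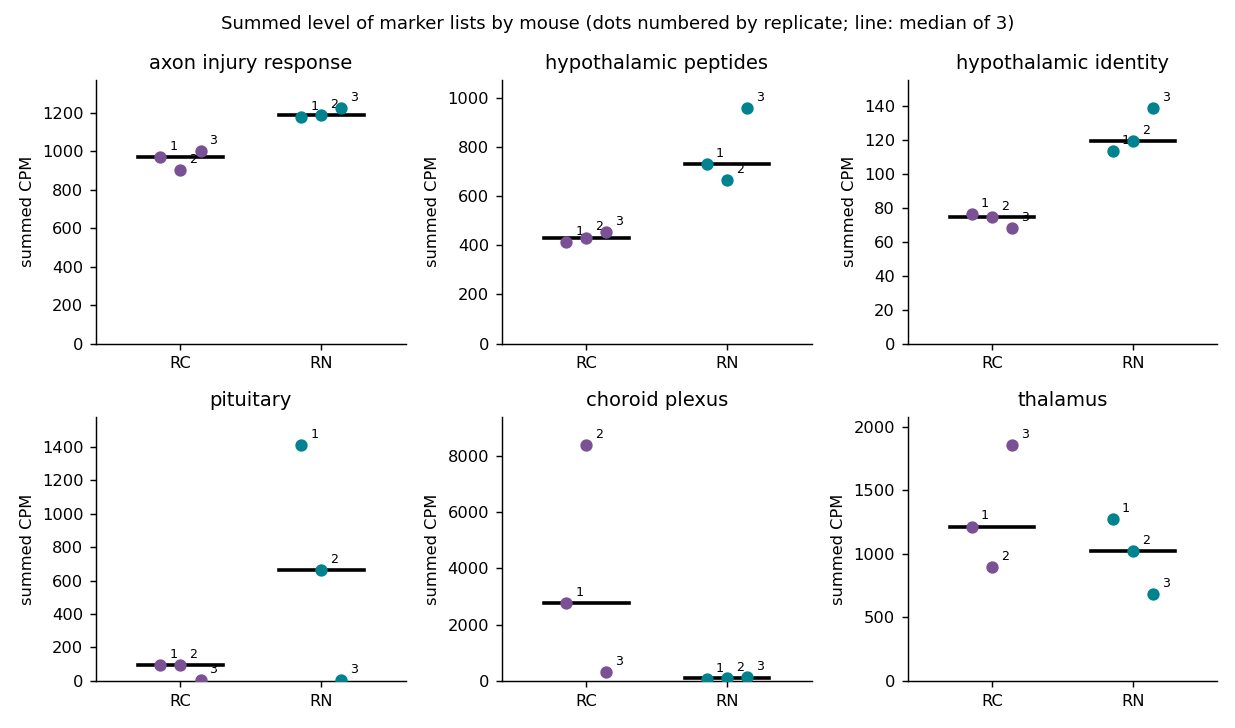
Summed level in CPM (linear axes from 0) of 6 gene lists by group, with 1 dot per mouse numbered by replicate and a line at the median of 3. The axon injury and both hypothalamic lists are higher in every RN mouse than in any RC mouse, while pituitary genes are high in RN1 and RN2 and near 0 in RC3 and RN3.

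The genes whose pattern was most like that of Gal were found by Pearson's r of log2 CPM over the 6 mice, among 14955 other tested genes. Since all 6 mice share the difference between the groups, r is high for many genes, and 112 had an r of at least 0.95. The highest was that of Fndc9, a fibronectin type III domain protein, at 0.998, with 156, 129 and 116 reads in RC and 311, 564 and 482 in RN. It was followed by Fgr, a kinase of myeloid cells, at 0.995, Abcg1, a cholesterol transporter, at 0.994, and Fcgr4, an antibody receptor of myeloid cells, at 0.992. Vav2, Nfkbiz, Klk8, Oasl1, Cilp and Atp9a completed the 10, with r of at least 0.985. Some of these genes differed far less than Gal between the groups: the log2 fold change of Abcg1 was 0.49, that of Vav2 0.27 and that of Atp9a 0.11.
When the size of the difference counted too, as the root mean square difference of centred log2 CPM, the nearest genes were Klk8 (0.31), Mfap4 (0.44), Sprr1a (0.45), Cilp (0.47) and Tdh (0.50). Klk8, a serine protease, had 36, 55 and 20 reads in RC and 180, 781 and 474 in RN, and so shared with Gal the low value of RN1 and the high value of RN2. Cilp and Mfap4, which encode extracellular matrix proteins, and Sprr1a also had their lowest RN value in RN1, at 67, 82 and 191 reads. Tdh had 2, 0 and 0 reads in RC and 25, 28 and 31 in RN, with no such gap between the RN mice. All these genes were picked by their likeness to Gal in the same 6 mice, so a shared pattern is part of the choice.

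**Figure D5:**
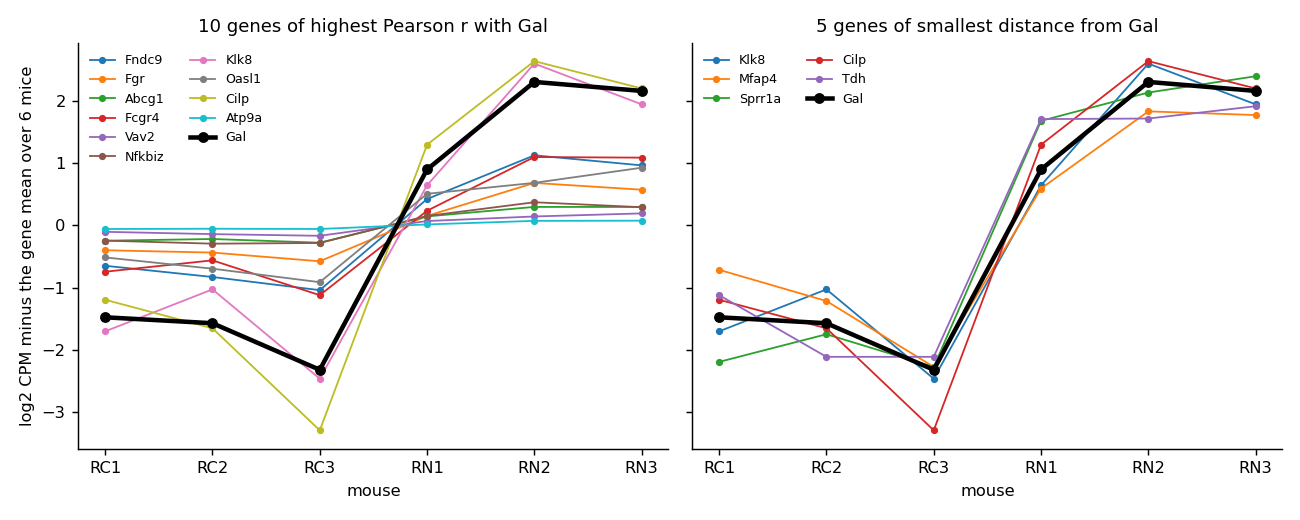
Log2 CPM of each gene minus its mean over the 6 mice (y axis) in each mouse (x axis), with Gal in black, for the 10 genes of highest r (left) and the 5 genes of smallest distance (right). Lines only join the values of 1 gene. RN1 lies below RN2 and RN3 for Gal and, among others, for Klk8, Cilp, Mfap4 and Sprr1a, which were picked by likeness to Gal in these mice.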

How the data were processed

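Bulk RNA-seq of thalamus from 3 RC and 3 RN mice was used. The authors deposited read counts per gene, whole numbers without normalization, 1 column per mouse. The submitters' processing notes name fastp 0.18.0, FastQC, HISAT2 2.2.4, RSEM 1.2.19 and the build GRCm39, without roles. The annotation and strand use are not given in the sources used here. Exon lengths and positions came from GENCODE M21, which is on GRCm38.

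Genes of low count were removed with filterByExpr (minimum count 10) in edgeR 4.0.16 under R 4.3.3. Counts were normalized by TMM and fitted with edgeR's quasi-likelihood model of group alone, with a prior count of 0.125. The labels number the replicates of each group, taken here as 1 mouse each, and p-values measure the spread between these libraries. P-values were adjusted by Benjamini-Hochberg over the 14956 tested genes, and genes were called at an adjusted p under 0.05 and at least 2-fold, the thresholds of the study. DESeq2 1.42.0, used in the study, was an alternative, as were its size factors, 2 other filters, edgeR without its legacy option, a prior count of 2, no fold threshold, the replicate number as a block, and each mouse left out. Log2 CPM had a prior count of 2. The edgeR and DESeq2 steps were tested on simulated counts. The interval of the Galr1 fold change comes from the quasi-likelihood fit, which includes the spread between mice.

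The members and the lists were chosen with earlier results of these data known. The genes named are the family, up to 3 genes with the smallest p in each list, and those most like Gal (10 by r and 5 by distance). Of the genes outside that rule, Vip, Gap43, Lif, Il6, Neurod1, Gnrh1, Pomc, Penk, Pmch, Hcrt, Cartpt, Six3, Ghsr, Hmx3, Nr5a1 and Cpe were named after their values were seen. Lhb stands on 2 rows, of which that with the GENCODE M21 identifier was used. Mice of the same replicate number deviated together across genes, with correlations of 0.173, 0.120 and 0.209 for numbers 1, 2 and 3, but RC1 and RN2 also did, at 0.156, and the sources used here give no shared litter or date for a number.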

Additional observations from a re-analysis of the deposited data

How the results depend on the processing

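The log2 fold change of Gal moved by less than the spread between mice under each alternative, and with the replicate block it was 3.58. Galr1 was not called under any alternative, with adjusted p from 0.465 to 0.824 over edgeR and DESeq2. The log2 ratio of Galr3 lay between -1.36 and -0.10 with each mouse left out, and the lowest value was without RN3. Against 9 higher and 2 lower genes over all tested genes, DESeq2 called 99 and 87, edgeR without a filter 36 and 7 (Oxt among them), and edgeR with the replicate block 17 and 5. Leaving out each mouse gave from 3 to 26 higher genes, the most without RN1, and from 0 to 18 lower genes, the most without RC3. Among the list genes, 3 were called higher and 0 lower. DESeq2 called 12 and 7 of them, with Oxt, Trh, Nts, Magel2, Nkx2-1, Otp, Fezf1, Six6 and Dlx1 beside Sprr1a, Atf3 and Ecel1, and with the replicate block edgeR called Cga as well (adjusted p = 0.00936). Leaving out each mouse gave from 1 to 4 higher list genes, with Sprr1a alone without RC1, RC2 or RN2 and with Fshb and Pomc among the 4 without RN3. It gave from 0 to 6 lower ones, all 6 of the choroid plexus list and without RC3. Direction turned for 5 uncalled genes, 1 of them Galr2 (-0.23 without RN2). With each mouse left out, log2 fold changes ranged from -0.14 to 0.32 for Kiss1r, from -0.20 to 0.88 for Th, from -1.47 to 0.75 for Tph2 and from -0.038 to 1.16 for Slc5a7, and with the replicate block that of Tph2 was -0.33. The causes were not tested. Over all named list genes, including these 4, 508 values kept their direction and side of the threshold, 18 passed it, 8 lost it and 5 turned direction. Low counts limit Galr2, Galr3, Galp and Kiss1, which the filter removed, and Galr3 and Kiss1 also overlap other genes on their strand.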
